A study of Mus musculus with 12 samples.

Results

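Untreated kidney tubule cells were compared with cells that received TGFβ and an NNMT inhibitor together, to ask which genes remained changed, which were back at the untreated level, and which lay on the other side of it. The comparison was set by treatment labels alone and used 6 of the 12 libraries, 3 from each group. The cells were im-TEC, a conditionally immortalized mouse tubular epithelial line that was grown at 33 °C with interferon-gamma and held for 7 days at 37 °C without it before seeding, which lowers the activity of its SV40 large T antigen. The controls received neither agent. The combined group received 10 ng/mL TGFβ and 50 µM 5-amino-1-methylquinolinium, and treatment lasted 48 h. Libraries of TGFβ alone and of the inhibitor alone, 3 of each at the same doses, served to place the combined values. They also entered the fit of all 12 libraries, which set the spread behind each p-value. All 4 groups share 1 cell line and the same earlier exposure to interferon-gamma. No primary cells were included.

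TGFβ is a secreted cytokine that signals through paired receptor kinases and SMAD transcription factors. In kidney tubule cells it is known for raising matrix and contractile genes and for lowering genes of the differentiated epithelium, and it also induces its own feedback inhibitors. NNMT methylates nicotinamide with the methyl group of S-adenosylmethionine, so it draws on both the NAD and the methionine pools. 5-Amino-1-methylquinolinium is a small-molecule inhibitor of that enzyme.

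The libraries read the 3′ end of polyadenylated RNA. Counts assigned to genes ranged from 2584117 to 11866903 per library, and the 6 compared libraries held 7838352 to 9458864. The shallowest was replicate 3 of TGFβ alone. Levels are given as CPM, counts scaled to the same TMM-adjusted library size, replicates 1, 2 and 3 in that order, and 3 counts in a library correspond to 0.265 to 1.15 CPM. Differences are given on the log2 scale with the SE of edgeR's quasi-likelihood fit and its Benjamini-Hochberg adjusted p, and a gene was called below 0.05. The share of counts outside annotated genes was 25.8% ± 0.252 (SD, n = 3) in the controls and 22.1% ± 0.929 (SD, n = 3) in the combined group, with no overlap (exact two-sided permutation p = 0.1, the smallest that 3 against 3 can give). Mitochondrially encoded genes took 7.61% ± 0.52 and 8.13% ± 0.763 of the counts in genes (SD, n = 3 each, exact permutation p = 0.5). The part of these differences in the results below was not tested. Of 50 proximal tubule markers, 30 stayed under 1 CPM in all 6 libraries, and *Hnf4a*, *Slc34a1* and the epithelial adhesion gene *Epcam* had 0 counts in both groups. *Cdh1*, which encodes E-cadherin, had 1 count in each group. *Aqp1*, *Lrp2*, *Pax2*, *Pax8* and *Cdh16* were well measured in the controls, so the line keeps some tubule genes and lacks others.

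With both agents, 4321 of 13581 tested genes differed from control (31.8%). Of these, 2077 were higher (15.3% of tested genes) and 2244 lower (16.5%), and 496 rises and 1157 falls were at least 2-fold. In 4265 of the called genes the 3 combined libraries did not overlap the 3 controls. Calling already favours genes whose groups are separate, so that count is not separate support for the calls. The share without overlap among all tested genes is not given here. The split depends on scaling: library totals without TMM gave 1404 higher and 2899 lower genes, 32.6% higher against 48.1%, and moved the median of all genes from 0.03 to -0.09 on the log2 scale.

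TGFβ alone changed 4961 genes against the same 3 control libraries (36.5%). Because those controls enter both comparisons, the counts below describe where genes lay and are not independent evidence that the 2 responses are alike. The same TGFβ libraries also select the genes and set the level from which nearer, further and returned genes are counted. Those counts are therefore descriptions too, and the part of the spread among TGFβ libraries in them was not tested. With the inhibitor present, 3100 of the 4961 (62.5%) still differed from control in the same direction, 1527 above it and 1573 below it. Most of these, 2644, could not be told apart from TGFβ alone, 243 lay nearer control than with TGFβ alone, and 213 lay further away. Among these 3100 genes the direction of the difference from TGFβ alone was uneven. Of those raised by TGFβ, 198 lay nearer control and 44 further away. Of those lowered by TGFβ, 45 lay nearer and 169 further away. These counts leave out genes that were not called against control with both agents. Among the latter, 151 raised and 155 lowered by TGFβ returned by the rule given below. Another 132 raised and 47 lowered genes moved back from the TGFβ level without meeting that rule. Against TGFβ alone, 1416 of all tested genes differed (10.4%), 469 higher (3.45%) and 947 lower (6.97%). By the interaction term, the inhibitor's effect differed with and without TGFβ in 151 genes (1.11%).

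A gene was counted as returned when it was called with TGFβ, differed from TGFβ alone with both agents, was not called against control, and had a 95% interval against control inside 1.5-fold. That held for 306 genes (6.17% of the 4961), 151 from above and 155 from below. Another 31 genes (0.625%) were called on the opposite side of control, 26 of them genes that TGFβ had raised. The remaining 1524 genes (30.7%) were not told from control without meeting the return rule, and 1345 of them were not told from TGFβ alone either, so their position is undetermined. The smaller classes depend on single libraries. Without control replicates 1, 2 or 3 the count of genes past control was 18, 17 or 13. The returned count was 199 or 188 without control replicates 2 or 3, 179 or 146 without combined replicates 1 or 3, and 469 without TGFβ replicate 3.

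**Figure D1:**
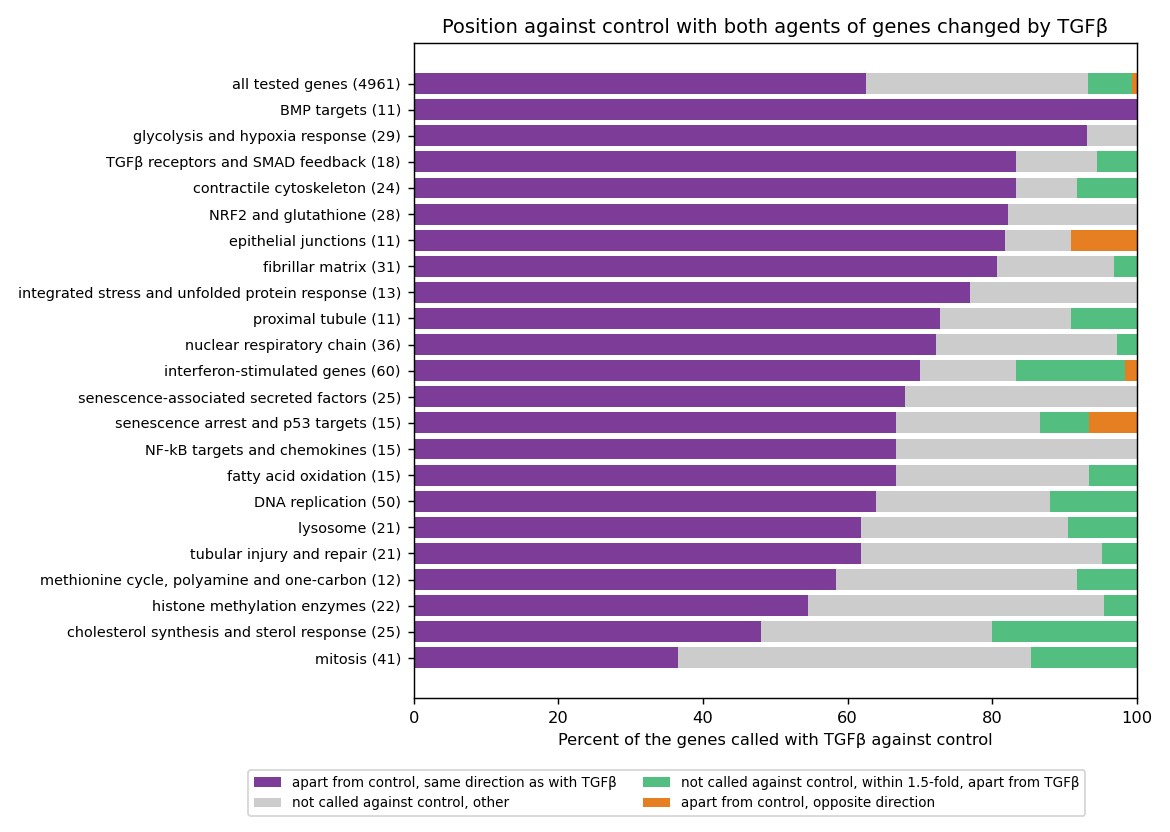
Each bar shows, for genes called with TGFβ against control, the percent that fell in each position with both agents; the number of genes is in brackets. Over all 4961 genes 62.5% stayed apart from control in the TGFβ direction, while the mitosis list had 15 of 41 there and the glycolysis list 27 of 29.

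Of 26 tested TGFβ receptor and SMAD feedback genes, 12 were higher and 3 lower than control with both agents (median log2 0.25, against 0.03 for all tested genes), and 15 of the 18 changed by TGFβ remained on the same side. The 3 lower became 5 without TGFβ replicate 2. *Pmepa1*, a membrane protein that sequesters receptor-activated SMADs, had 146, 161 and 154 CPM in the controls and 2364, 2360 and 2196 with both agents. All 3 combined libraries lay above all controls and above all TGFβ libraries, which had 1269, 2100 and 1462 CPM. It rose by 3.91 ± 0.15 on the log2 scale (edgeR, adjusted p = 1.35e-12), and stood 0.52 ± 0.13 above TGFβ alone (adjusted p = 0.0199). *Ldlrad4*, a related SMAD inhibitor, went from 19.6, 18.3 and 17.4 CPM to 71.6, 64.7 and 61.7, and *Skil*, a SMAD co-repressor, rose 3.04-fold (adjusted p = 2.98e-09). The co-receptor gene *Tgfbr3* fell 3.7-fold (adjusted p = 7.28e-09). *Tgfb1*, the ligand itself, had 13.1, 9.2 and 10.9 CPM in the controls and 9.03, 12.7 and 13.5 with both agents, overlapping groups with a difference of 0.08 ± 0.38 (95% interval -0.73 to 0.9).

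BMPs are relatives of TGFβ that act through other SMADs, and the Id genes are their standard targets. Of 14 tested genes of the BMP pathway 8 were lower and 3 higher (median -0.97), and each of the 11 changed by TGFβ stayed changed. *Id2*, an inhibitor of helix-loop-helix transcription factors, had 910, 927 and 973 CPM in the controls and 117, 143 and 135 with both agents, close to the 127, 99.1 and 97.2 of TGFβ alone. The groups were far apart, with a change of -2.83 ± 0.11 (7.11-fold, edgeR adjusted p = 1.45e-12). *Id4* fell 23.9-fold, from 54.4 to 71.4 CPM down to 1.62 to 3.17. *Id1* had 321, 312 and 322 CPM in the controls, 129, 104 and 110 with TGFβ alone and 174, 152 and 173 with both agents. Its combined level was thus intermediate, 1.91-fold below control (adjusted p = 4.74e-07) and 0.54 ± 0.1 above TGFβ alone (adjusted p = 0.00173). *Bmp6*, a ligand, went the other way, 4.23-fold below control and 1.92-fold below TGFβ alone (adjusted p = 1.41e-10 and 6.01e-05).

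Fibrillar matrix genes also stayed high. Of 38 tested, 24 were higher and 6 lower than control (median 0.96), and 25 of the 31 changed by TGFβ kept their direction. Compared with TGFβ alone, 13 were lower and 3 higher. *Ccn2*, the matricellular connective tissue growth factor, had 506, 489 and 377 CPM in the controls and 6730, 3132 and 6384 with both agents. Replicate 2 was the lowest of its group there and also among the TGFβ libraries, at 946 against 4088 and 4262 CPM, and the rise was 3.57 ± 0.57 (adjusted p = 0.00126).

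*Col1a1* (chr11:94936224-94953042, plus strand, GRCm38), the main fibrillar collagen chain, lay between its levels in the controls and with TGFβ. It had 6.25, 4.36 and 3.02 CPM in the controls, 144, 183 and 167 with TGFβ alone and 45.1, 37 and 33.1 with both agents, with no overlap among the 3 groups. The combined level was 8.49-fold above control (3.09 ± 0.24, adjusted p = 6.47e-08) and 4.28-fold below TGFβ alone (adjusted p = 6.52e-06). *Fn1*, fibronectin, was likewise intermediate: 572, 547 and 553 CPM in the controls, 1570, 2101 and 1490 with TGFβ alone and 1117, 1088 and 1101 with both, 1.98-fold above control (adjusted p = 1.18e-06). *Timp1*, a metalloproteinase inhibitor, was 3.36-fold above control and 1.55-fold below TGFβ alone. *Col5a1* at 4.76-fold, *Ccn4* at 7.39-fold and the membrane protease *Mmp14* at 2.5-fold above control were not told from TGFβ alone (adjusted p = 0.415, 0.661 and 0.664). *Col6a1*, *Col6a2* and *Col6a3*, the chains of beaded-filament collagen VI, fell by 0.64, 0.99 and 2.08 with both agents (edgeR adjusted p = 0.0491, 1.31e-05 and 0.0402). TGFβ alone did not change them past the threshold, but only *Col6a2* was called below TGFβ alone. All were singled out after their values were seen.

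*Postn* (chr3:54361109-54391037, plus strand, GRCm38), the matricellular protein periostin, was the matrix gene that met the return rule. It had 87.3, 67.3 and 60.7 CPM in the controls, 462, 484 and 506 with TGFβ alone, 83, 70.2 and 58.6 with both agents and 3.08, 3.31 and 1.86 with the inhibitor alone. The combined and control libraries overlapped fully, and the difference was -0.02 ± 0.15 (95% interval -0.33 to 0.29, adjusted p = 0.931). Against TGFβ alone it was 6.84-fold lower (adjusted p = 5.11e-09).

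Basement membrane genes divided. Of 16 tested, 5 were higher and 7 lower than control, and each of the 9 changed by TGFβ kept its direction. *Col4a4* rose from 7.37, 6.54 and 9.78 CPM to 68.3, 72.8 and 72, an 8.93-fold change (adjusted p = 6.37e-11), and *Col4a3* rose 8.08-fold. *Col4a1*, a chain of the ubiquitous collagen IV trimer, went the opposite way, from 7.14, 8.11 and 9.68 CPM to 2.55, 2.36 and 3.3 (-1.61 ± 0.27, adjusted p = 0.000162). The groups of *Col4a1* did not overlap. The other tested collagen IV chains, *Col4a2* and *Col4a5*, were lower too, by 1.3 and 1.12 on the log2 scale (edgeR adjusted p = 0.00349 and 5.16e-06). Both were chosen after their values were seen. *Agrn*, agrin, was 2.11-fold above control and 1.52-fold above TGFβ alone (adjusted p = 5.02e-08 and 0.000381), and the laminin chain gene *Lamb3* was 19.8-fold above control but 2.19-fold below TGFβ alone.

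Contractile genes had a large share of higher members. Of 29 tested, 19 were higher and 2 lower (median 0.87), and 20 of the 24 changed by TGFβ stayed changed. *Acta2* (chr19:34241090-34255590, minus strand, GRCm38), smooth muscle actin and a usual marker of myofibroblasts, had 44.1, 42.5 and 44.3 CPM in the controls and 747, 619 and 658 with both agents, while TGFβ alone gave 792, 1022 and 804. The rise against control was 3.95 ± 0.14 (15.5-fold, adjusted p = 3.03e-13), and the difference from TGFβ alone, -0.37 ± 0.12, missed the threshold (adjusted p = 0.052). With the inhibitor alone *Acta2* had 5.4, 5.21 and 3.49 CPM, all below the controls. *Tagln*, an actin-binding protein of smooth muscle, went from 48, 41.6 and 35.6 to 371, 230 and 342 CPM (7.54-fold, adjusted p = 3.4e-05). *Cnn1*, calponin, did not follow: it had 20.8, 19.4 and 17.5 CPM in the controls, 46.5, 66.6 and 29.1 with TGFβ alone and 19, 21 and 17.6 with both agents, a difference from control of 0.0 ± 0.22 (95% interval -0.45 to 0.45). *Tpm1* and *Actn1*, tropomyosin and α-actinin, were 3.29-fold and 3.26-fold above control.

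*Acta1*, skeletal muscle actin, showed one of the steepest rises, from 2.9, 3.27 and 2.82 CPM to 211, 190 and 178 (6.01 ± 0.24, 64.4-fold, adjusted p = 3.49e-11). Its promoter is printed because serum response factor, a regulator of contractile genes, is known to bind the CArG box, which is in capitals. The sequence is from RefSeq, GRCm38.p6, chr8:123894726-123895025, minus strand, and runs 5′ to 3′ from 250 bases before to 50 after the start.
Acta1: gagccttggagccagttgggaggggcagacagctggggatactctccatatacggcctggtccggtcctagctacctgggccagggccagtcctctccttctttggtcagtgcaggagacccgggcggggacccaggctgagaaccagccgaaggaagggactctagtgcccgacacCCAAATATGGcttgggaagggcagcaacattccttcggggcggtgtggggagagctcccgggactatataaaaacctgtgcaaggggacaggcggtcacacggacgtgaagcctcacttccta
The CArG box starts at -73 from the transcription start. One was found on either strand in 5 of 27 tested contractile genes with a promoter entry (18.5%) and in 1.81% of 27025 genes.

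**Figure D2:**
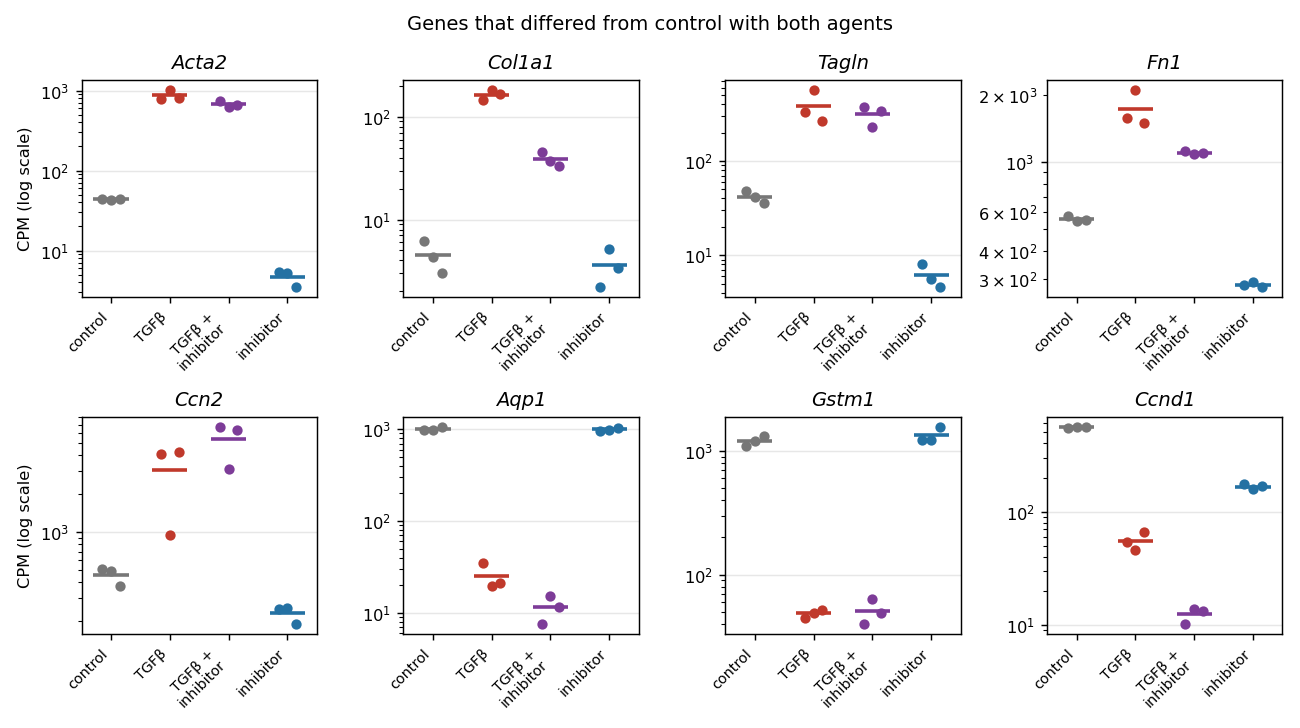
CPM on a log axis for 8 genes in the 12 libraries; points are libraries and lines are group means. In each panel the 3 TGFβ + inhibitor libraries lie apart from the 3 controls, above for *Acta2*, *Col1a1*, *Tagln*, *Fn1* and *Ccn2* and below for *Aqp1*, *Gstm1* and *Ccnd1*.

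Besides *Postn* and *Cnn1*, the returned genes with the largest TGFβ response included *Syt8*, *Ifit3*, *Prkg2* and *Pgap1*. *Prkg2*, a cGMP-dependent kinase, had 28.6, 26.3 and 24.5 CPM in the controls and 28.7, 29.6 and 23.5 with both agents, against 56.1, 69.7 and 73.5 with TGFβ. The combined libraries overlapped the controls and lay below all TGFβ libraries, and the difference from control was 0.05 ± 0.14 (adjusted p = 0.838). *Pgap1*, an enzyme that remodels GPI anchors, came back from below: 37.8, 40.9 and 43.7 CPM untreated, 17.6, 18.5 and 18.7 with TGFβ and 35.2, 43.4 and 33.9 with both agents, a difference from control of -0.12 ± 0.13 (adjusted p = 0.496). *Syt8*, of the synaptotagmin family, differed from control by 0.11 ± 0.15 after a 3.16-fold rise with TGFβ.

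Among the 6 named genes past control, *Ccdc80* and *Hist1h1c* had the highest control levels. All 6 were picked for no overlap with control and a call against TGFβ alone. Their separation is therefore not separate support. *Hist1h1c*, a linker histone, had 74.7, 64.5 and 63.2 CPM in the controls, 142, 136 and 164 with TGFβ alone and 43.4, 34.2 and 37.4 with both agents. The 3 groups did not overlap, and the combined level was 1.76-fold below control (adjusted p = 2.59e-05) and 3.82-fold below TGFβ alone (adjusted p = 1.26e-08). Histone genes have close copies, so its assignment is uncertain. *Ccdc80*, a secreted matrix protein, had 606, 603 and 599 CPM in the controls, 878, 983 and 822 with TGFβ alone and 349, 416 and 311 with both agents, 1.68-fold below control (adjusted p = 1.97e-05). *Cd80*, a T-cell costimulatory ligand, and *Angpt4*, an angiopoietin, were 2.75-fold and 2.23-fold below control (adjusted p = 4.06e-05 and 0.000109). With the inhibitor alone *Ccdc80* was at 200, 212 and 213 CPM and *Cd80* at 2.53, 2.96 and 2.95, below control as well. The pseudogene *Slfn10-ps* was 1.87-fold lower (adjusted p = 0.00471), and *Ppp4r1l-ps*, a pseudogene that TGFβ had lowered, was 1.67-fold higher than control (adjusted p = 0.000602); reads of both may be shared with related genes.

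Not all changes were present with a single agent. With both agents 1190 genes were called that were not called with TGFβ alone, and 97 of them differed in the same direction from control and from each single agent while neither agent alone was called. Over all tested genes the combined group differed from the inhibitor alone in 36.3%, and the inhibitor alone from control in 8.27%. Of the 97 34 were higher and 63 lower, and the 97 became 48 or 50 without combined replicates 1 or 3 and 171 without TGFβ replicate 3. *Fzd5*, a Wnt receptor, had 11.5, 12 and 12.4 CPM in the controls and 20.3, 21.7 and 28.8 with both agents (1.97-fold, adjusted p = 0.000387), against 16, 11.7 and 15.3 with TGFβ and 12.1, 10.1 and 9.06 with the inhibitor. The combined libraries were the highest of all 12. Genes of this class were named only if their combined libraries did not overlap control. The class itself requires a call against each single agent, so such separation is not separate support. *Slc1a4*, a neutral amino acid transporter, went from 11.4, 11.7 and 11.4 to 21.8, 21.4 and 20.9 CPM, *Adpgk*, an ADP-dependent glucokinase, rose 1.94-fold and *Ier5*, an immediate early gene, 1.74-fold. *Ccdc141*, *Nhs*, *Plch1* and the olfactory receptor gene *Olfr1316* fell by 2.85-fold to 3.65-fold; receptor genes of that family have close copies, so that count is uncertain.

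**Figure D3:**
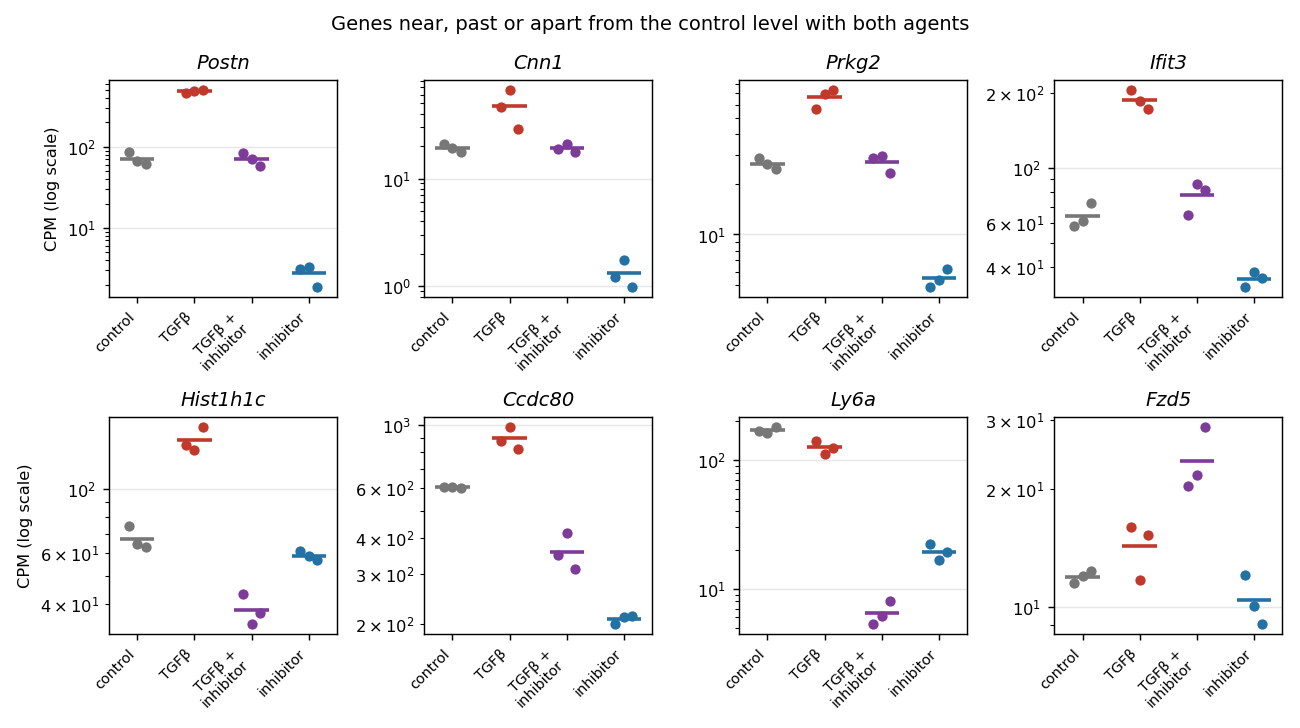
CPM on a log axis for 8 genes in the 12 libraries; points are libraries and lines are group means. The TGFβ + inhibitor libraries overlap control in *Postn*, *Cnn1*, *Prkg2* and *Ifit3*, lie below it in *Hist1h1c*, *Ccdc80* and *Ly6a*, and are the highest libraries in *Fzd5*.

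The steepest falls took several genes to a few counts or none. *Ly6a*, the surface antigen Sca-1, had 169, 162 and 182 CPM in the controls, 142, 111 and 124 with TGFβ alone, 22.4, 16.7 and 19.2 with the inhibitor and 5.32, 6.18 and 8.06 with both agents. The groups did not overlap, and the change from control was -4.72 ± 0.16 (26.3-fold, adjusted p = 3.03e-13), with a further 2.99-fold difference from the inhibitor alone (adjusted p = 4.12e-07). *Abi3bp*, a matrix-associated protein, went from 106, 115 and 97.8 to 0.81, 0.787 and 0.792 CPM (131-fold, adjusted p = 3.3e-13). *Slc6a18*, an apical amino acid transporter, *Flrt1*, a membrane adhesion protein, and *Inmt*, a small-molecule methyltransferase related to NNMT, had 408, 332 and 1450 counts over the 3 controls and 0 over the 3 combined libraries. Set against a floor of 3 counts over the group they were at least 126-fold, 102-fold and 447-fold lower, and with the counting error of both groups the exact 95% lower limits were 102, 82.8 and 363. *Inmt* was also at 0 in all 3 TGFβ libraries. *Lmtk3*, *Gpnmb* and *Cxcl5* had 3 counts each over the combined libraries, and their control to combined ratios were 124 (exact 95% counting interval 42.0 to 602), 105 (35.7 to 512) and 101 (34.2 to 491). Fitted changes of such genes rest on few counts: that of *Lmtk3* moved from -6.79 to -7.63 without combined replicate 1 and that of *Cxcl5* from -6.5 to -9.69 without combined replicate 2.

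The steepest rises began near 0. *C1qtnf3*, a secreted C1q-related protein, had 0, 0.242 and 0.202 CPM in the controls, 4.95, 5.22 and 3.83 with TGFβ alone and 21.4, 14.5 and 17 with both agents. *Fgf21*, a metabolic hormone, had 0.223, 0 and 0.202 CPM in the controls, 8.94, 3.63 and 8.8 with TGFβ alone and 19.2, 11.2 and 15.1 with both. In both genes the combined libraries were the highest of all groups, and the combined level was 3.64-fold and 2.23-fold above TGFβ alone (adjusted p = 0.000262 and 0.0432). *Kif26b* (44.7-fold), *Prrt4* (33.4-fold) and *Cmah* (33.1-fold) started under about 1 CPM as well, and *Adam12*, a membrane metalloproteinase, rose 23.3-fold from 0.335, 1.21 and 1.31 to 28.1, 18.8 and 21 CPM. *Ctsw*, cathepsin W, had 2.34, 1.21 and 1.21 CPM in the controls and 82.5, 67.2 and 66.4 with both agents, 45.1-fold higher but 1.85-fold below TGFβ alone (adjusted p = 0.00164).

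Interferon-stimulated genes moved part of the way back. These genes encode antiviral effectors and are normally switched on through STAT and IRF factors. Of 79 tested, 40 were higher than control with both agents and 6 lower (median 0.58), against 58 raised by TGFβ alone (median 1.23). Of the 60 changed by TGFβ, 42 kept their direction (70.0%, against 62.5% of all genes changed by TGFβ) and 9 returned. Only *Slfn2* (-1.22, chosen after its value was seen) passed control, and 8 were otherwise not told from control. Against TGFβ alone 49 of the 79 were lower and 0 higher. Promoters of 4 members are printed to show the ISRE core, searched on both strands as GAAA, any 2 bases and GAAA again, and given in capitals as it reads on the printed strand, in genes that stayed raised (*Ifit1*, *Cxcl10*, *Rsad2*) and in one that returned (*Ifit3*). They are from RefSeq, GRCm38.p6, 5′ to 3′, from 250 bases before to 50 after the start: *Ifit1* chr19:34640639-34640938, plus strand; *Ifit3* chr19:34583279-34583578, plus strand; *Cxcl10* chr5:92348840-92349139, minus strand; *Rsad2* chr12:26456403-26456702, minus strand.
Ifit1: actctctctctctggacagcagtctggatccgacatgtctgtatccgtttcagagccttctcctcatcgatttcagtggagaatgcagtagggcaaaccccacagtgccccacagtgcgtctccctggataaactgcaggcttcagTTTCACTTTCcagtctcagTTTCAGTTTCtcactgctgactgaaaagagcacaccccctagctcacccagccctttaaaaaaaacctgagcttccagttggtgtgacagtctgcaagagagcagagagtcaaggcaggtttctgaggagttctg
Ifit3: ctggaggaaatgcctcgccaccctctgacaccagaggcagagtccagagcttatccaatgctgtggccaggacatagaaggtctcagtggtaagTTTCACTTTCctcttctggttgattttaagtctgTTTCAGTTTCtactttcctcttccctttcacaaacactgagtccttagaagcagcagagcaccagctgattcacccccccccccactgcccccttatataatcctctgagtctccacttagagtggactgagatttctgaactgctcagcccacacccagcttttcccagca
Cxcl10: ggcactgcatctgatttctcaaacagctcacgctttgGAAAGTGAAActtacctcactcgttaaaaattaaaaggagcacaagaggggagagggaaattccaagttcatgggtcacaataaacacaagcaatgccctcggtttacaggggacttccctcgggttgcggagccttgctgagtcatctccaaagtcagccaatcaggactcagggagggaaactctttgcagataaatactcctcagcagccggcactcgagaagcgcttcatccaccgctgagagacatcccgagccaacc
Rsad2: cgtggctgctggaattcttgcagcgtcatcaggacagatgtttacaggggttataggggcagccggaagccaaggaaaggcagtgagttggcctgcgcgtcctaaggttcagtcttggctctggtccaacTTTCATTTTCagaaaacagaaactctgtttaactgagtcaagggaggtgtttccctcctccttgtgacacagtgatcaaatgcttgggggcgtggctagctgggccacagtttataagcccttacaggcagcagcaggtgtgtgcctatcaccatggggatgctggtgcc
Matches start at -104 and -85 from the transcription start in *Ifit1*, at -156 and -122 in *Ifit3*, at -213 in *Cxcl10* and at -120 in *Rsad2*. The core was found in 30 of 60 tested list members with a promoter entry (50.0%), in 18 of the 31 that were higher with both agents (58.1%), and in 3.99% of 27025 genes.

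*Ifit1*, an RNA-binding antiviral protein, had 67, 57.4 and 65.9 CPM in the controls, 446, 526 and 455 with TGFβ alone and 240, 333 and 313 with both agents. The 3 groups did not overlap, and the combined level was 4.65-fold above control (2.22 ± 0.13, adjusted p = 3.05e-10) and 1.61-fold below TGFβ alone (adjusted p = 0.0017). *Cxcl10*, a chemokine, had 72, 71.4 and 68.7 CPM in the controls, 403, 477 and 484 with TGFβ alone and 279, 302 and 280 with both, 4.06-fold above control. *Rsad2*, viperin, and *Gbp3*, a guanylate-binding GTPase, stayed 5.46-fold and 3.25-fold above control, and *Gbp3* was 2.24-fold below TGFβ alone (adjusted p = 2.2e-06) while *Rsad2* was not told from it (adjusted p = 0.0847). *Ifit3* lay close to control, with 58.5, 61.6 and 72.4 CPM there, 206, 185 and 172 with TGFβ and 64.9, 86.7 and 82 with both agents. Its difference of 0.28 ± 0.12 was not called (adjusted p = 0.0931), but became 0.39 (adjusted p = 0.0286) without combined replicate 1 and 0.27 (adjusted p = 0.0444) without TGFβ replicate 2. *Ifit3* and *Ifit3b* are near-identical copies, so reads may be split between them.

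DNA replication and mitotic genes stayed partly raised. Of 56 tested replication genes, 30 were higher (53.6%) and 2 lower (3.57%) than control, with a median of 0.39. Over all tested genes the shares were 15.3% and 16.5%. Of the 50 changed by TGFβ, 32 kept their direction (64.0%), near the 62.5% of all genes changed by TGFβ. Of 46 mitosis genes 15 were higher (32.6%) and 0 lower (median 0.38), 41 having been raised by TGFβ alone. Of those 41, 15 stayed above control (36.6%), 6 returned and 20 were otherwise not told from it. The mitosis count depended on the fit, at 10 with library totals alone, 24 without TGFβ replicate 2, 26 with voom quality weights and 23 with the 6 libraries alone; the difference between the 2 lists was not tested.

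*E2f1* and *E2f7*, transcription factors of the G1/S transition, were 1.82-fold and 2.78-fold above control (adjusted p = 1.11e-05 and 3.03e-06). The family did not move together. *E2f2* was lower than control by 1.1 on the log2 scale (edgeR adjusted p = 0.000663), and *E2f8* was not called (-0.33, adjusted p = 0.191). Both were chosen after their values were seen. *Cdc45*, a subunit of the replicative helicase, had 17.4, 20.6 and 18.1 CPM in the controls, 55.5, 45.2 and 73.8 with TGFβ alone and 46.9, 36.1 and 34.5 with both agents (2.09-fold above control, adjusted p = 7.55e-05). *Top2a*, *Cenpe*, *Prc1* and *Ccnb1*, which act in chromosome separation and mitotic entry, were 1.49-fold, 1.9-fold, 1.49-fold and 1.61-fold above control. *Mki67*, the usual proliferation marker, had 47.4, 56.3 and 52.2 CPM in the controls and 51, 72.5 and 56.3 with both agents, overlapping groups with a difference of 0.21 ± 0.17 (adjusted p = 0.398). *Ccnd1*, the D-type cyclin that starts G1, moved against these lists: 543, 557 and 561 CPM in the controls, 53.5, 46.3 and 66.6 with TGFβ alone, 175, 157 and 168 with the inhibitor and 10.2, 13.9 and 13.2 with both. The combined libraries were the lowest of all 12, and the change of -5.48 ± 0.15 was 44.5-fold lower (adjusted p = 1.77e-14).

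Senescence arrest and p53 target genes showed no common direction, with 8 higher and 9 lower of 35 tested (median -0.08). *Cdkn2b*, the p15 cyclin-dependent kinase inhibitor and a known TGFβ target, had 81.1, 78.7 and 87.5 CPM in the controls, 131, 153 and 145 with TGFβ alone and 183, 178 and 164 with both agents (2.12-fold, adjusted p = 5.05e-08). *Cdkn2a*, the p16 and p19ARF locus, had 534, 592 and 546 CPM in the controls and 830, 731 and 986 with both (1.52-fold, adjusted p = 0.00201), a level not told from TGFβ alone (adjusted p = 0.944). *Cdkn1a*, p21, had 1767, 1932 and 1933 CPM in the controls and 2168, 2303 and 2190 with both agents. These groups did not overlap, but the difference of 0.24 ± 0.1 was not called (adjusted p = 0.0725); it was called with the 6 libraries alone (adjusted p = 0.0122), with voom quality weights (0.00723) and without TGFβ replicates 2 or 3 (0.0161 and 0.0249). *Cdkn2c*, p18, and *Bbc3*, the p53 target PUMA, fell 2.6-fold and 1.94-fold, and *Gadd45g* rose 4.99-fold. *Lmnb1*, lamin B1, whose loss is a senescence marker, did not differ past the threshold (0.1 ± 0.17, 95% interval -0.26 to 0.45). Of 34 secreted factors linked to senescence 11 were higher and 13 lower. *Stc1*, stanniocalcin 1, went from 33.9, 30.3 and 34.5 to 0.463, 0.562 and 0.264 CPM (72.8-fold lower, adjusted p = 6.19e-13).

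Genes of the differentiated tubule were mostly lower. Of 18 tested proximal tubule genes 11 were lower and 1 higher (median -0.74). *Aqp1*, the water channel, had 981, 990 and 1066 CPM in the controls, 959, 988 and 1039 with the inhibitor, 35, 19.5 and 21 with TGFβ and 7.52, 15.4 and 11.5 with both. The combined libraries lay below every TGFβ library, 2.23-fold lower than TGFβ alone (adjusted p = 0.0104) and 88-fold lower than control (-6.46 ± 0.26 on the log2 scale, adjusted p = 6.93e-10). *Agt*, angiotensinogen, went from 27.8, 25.9 and 34.8 to 0.463, 0.899 and 0.132 CPM (a change of -5.8, which was -6.52 without combined replicate 2), and *Mme*, neprilysin, fell 3.93-fold. *Lrp2*, which encodes megalin, was the only proximal tubule gene that met the return rule (0.19 against control, chosen after its value was seen). Of 6 loop and distal genes 3 fell, *Gata3* 7.34-fold, *Wnk4* 3.44-fold and *Trpm6* 3.67-fold.

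Junction genes were mixed, 4 higher and 7 lower of 19. *Cdh16*, a kidney cadherin, went from 207, 216 and 216 to 67.7, 74.7 and 72.2 CPM (2.98-fold lower, adjusted p = 3.96e-09), and *Pard3*, a polarity protein, rose 2.26-fold. *Cldn2*, a tight junction channel, had 6.14, 7.99 and 9.27 CPM in the controls and 0, 0.225 and 0.528 with both agents (-4.94, or -5.94 without combined replicate 3). *Krt7*, a keratin, was the single junction-list gene called past control, chosen after its value was seen.

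Injury and repair genes fell more often than they rose, with 12 lower and 4 higher of 27 (median -0.31), and 12 lay below TGFβ alone against 0 above it. The 4 higher genes were *Clu*, *Cd44*, *Cdh6* and *Anxa1*, by 1.11, 1.13, 0.82 and 0.46 on the log2 scale. *Havcr1*, the injury marker KIM-1, had 6.03, 7.26 and 6.75 CPM in the controls, 26.6, 15.3 and 30.2 with TGFβ alone and 2.66, 4.27 and 3.83 with both agents. All combined libraries lay below all controls, but the difference of -0.89 ± 0.34 missed the threshold (adjusted p = 0.0542); it passed in DESeq2 (-0.92, adjusted p = 0.0182), without TMM (0.0364), without the low-count filter (0.00968), with voom quality weights (0.0161), with the 6 libraries alone (0.00765) and without TGFβ replicates 2 or 3 (0.0144 and 0.0434). *Spp1*, osteopontin, had 741, 630 and 621 CPM in the controls, 486, 487 and 495 with TGFβ alone and 209, 177 and 186 with both (3.48-fold lower, adjusted p = 9.35e-11). *Vcam1*, an adhesion molecule, and *Cp*, ceruloplasmin, fell 5.59-fold and 7.34-fold, and the complement gene *C3* fell from 87, 99.5 and 106 to 10.9, 11.1 and 8.58 CPM. Of 27 NF-kB targets and chemokines 12 were lower and 3 higher, among them the scavenger receptor gene *Ackr3*, from 63.9, 60.6 and 60 to 0.694, 1.35 and 0.528 CPM (69.2-fold, adjusted p = 3.44e-13).

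**Figure D4:**
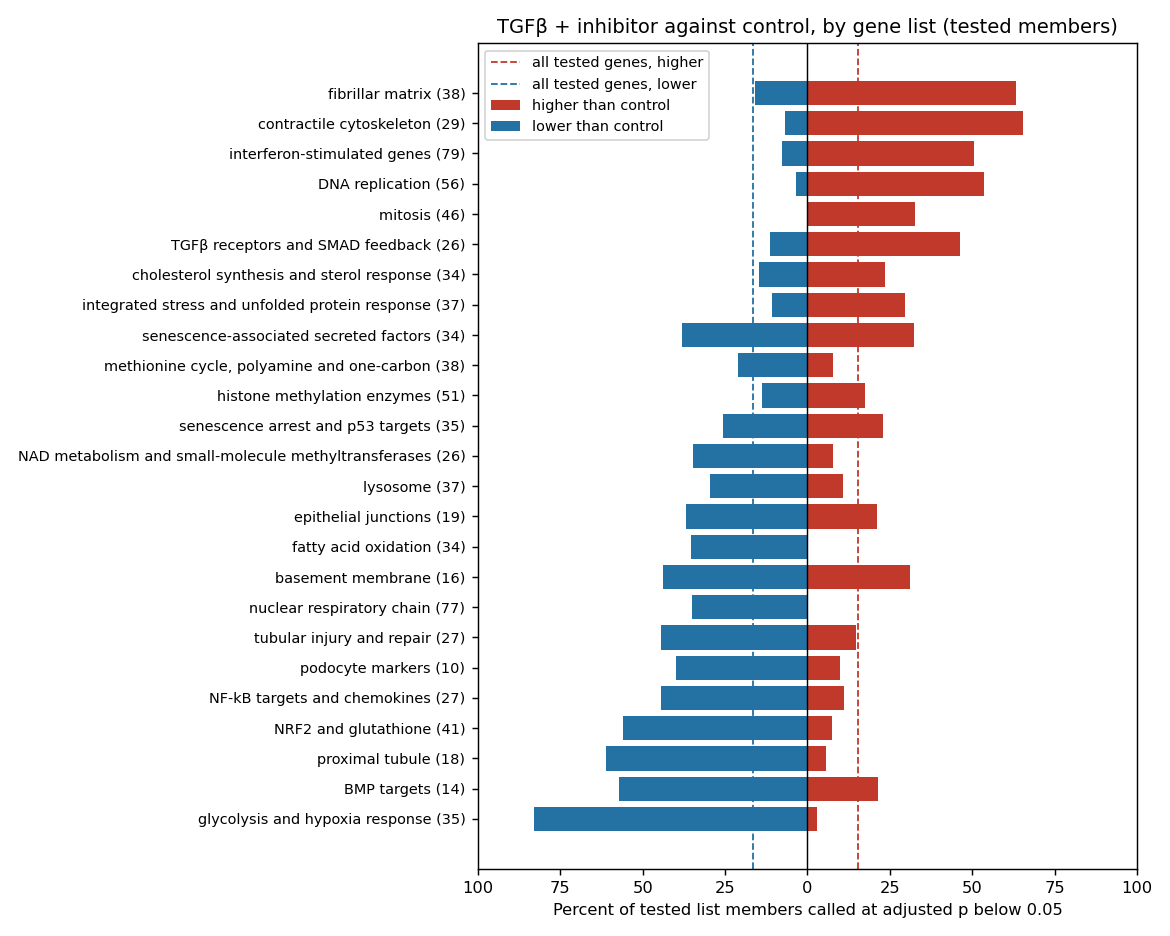
Percent of tested members of each list that were higher (right) or lower (left) than control with both agents, with the number tested in brackets; dashed lines mark 15.3% and 16.5%, the shares over all tested genes. Contractile and fibrillar matrix genes have the largest shares of higher members, and glycolysis genes the largest share of lower ones, 29 of 35.

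Glycolysis and hypoxia response genes were the list with the largest share of falls: 29 of 35 were lower and 1 higher (median -1.1), and 27 of the 29 changed by TGFβ kept their direction. *Aldoa*, aldolase, had 669, 719 and 738 CPM in the controls, 212, 271 and 192 with TGFβ alone and 199, 254 and 206 with both agents (3.22-fold lower, adjusted p = 4.77e-09). *Ldhb* and *Tpi1*, lactate dehydrogenase B and triosephosphate isomerase, fell 4.21-fold and 2.16-fold. *Ndrg1*, a hypoxia-induced gene, went from 459, 468 and 488 to 183, 180 and 177 CPM while the inhibitor alone gave 678, 698 and 671, above every control. Its fall against control was 2.62-fold (adjusted p = 2.39e-09).

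Of 77 nuclear-encoded respiratory chain subunits 27 were lower, 0 higher and 50 not called (median -0.3). The 27 became 20 without control replicate 3, 42 without TGFβ replicate 2, 48 with the 6 libraries alone and 47 with voom quality weights. *Ndufb8*, of complex I, went from 315, 345 and 348 to 158, 171 and 149 CPM (2.11-fold lower, adjusted p = 4.03e-08), and *Atp5b*, of ATP synthase, fell 1.65-fold. *Ppargc1a*, the coactivator PGC-1α that drives mitochondrial genes, had 252, 247 and 270 CPM in the controls and 7.29, 13.3 and 11.6 with both agents (23.9-fold lower, adjusted p = 2.93e-11), not told from TGFβ alone (adjusted p = 0.676). Of 34 fatty acid oxidation genes 12 were lower and 0 higher, *Acaa2* by 3.61-fold and *Acadm* by 2.11-fold. Of 7 tested mitochondrially encoded mRNAs 1 was called, *mt-Nd4*, from 15919, 17768 and 19919 to 20382, 30093 and 25260 CPM (0.5 ± 0.15, adjusted p = 0.0161), and that call ended with library totals alone (adjusted p = 0.0688), without control replicates 1 or 2 (0.0858 and 0.056) and without combined replicates 2 or 3 (0.113 and 0.0564).

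NRF2 and glutathione genes, the main antioxidant programme, had 23 lower and 3 higher members of 41 (median -0.62). *Gstm1*, a glutathione S-transferase, had 1103, 1197 and 1309 CPM in the controls, 44.7, 49.3 and 51.7 with TGFβ alone and 39.8, 63.9 and 48.5 with both agents, 23.7-fold lower (adjusted p = 7.32e-13), and *Gstm2* fell 5.14-fold; the 2 are close copies and may share reads. *Gclc*, the catalytic subunit of glutathione synthesis, went further than with TGFβ: 265, 273 and 270 CPM in the controls, 144, 158 and 130 with TGFβ alone and 63.4, 59.2 and 65.4 with both (4.3-fold below control and 2.31-fold below TGFβ alone, adjusted p = 1.42e-11 and 3.97e-07). *Nfe2l2*, NRF2 itself, was 2.47-fold lower (adjusted p = 4.82e-08).

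The transcript of the inhibited enzyme did not change past the threshold. *Nnmt* had 27.7, 22.8 and 28.2 CPM in the controls and 26.9, 27.2 and 23.6 with both agents, a difference of -0.02 ± 0.16 (95% interval -0.35 to 0.31, adjusted p = 0.945). The groups overlapped. Enzyme activity was not measured. Of 26 NAD and methyltransferase genes 9 were lower and 2 higher, and the 2 higher became 0 without control replicate 3 or combined replicate 2. *Nampt*, the rate-limiting enzyme of NAD salvage, went from 175, 171 and 170 to 54.5, 51.9 and 73.6 CPM (2.87-fold lower, adjusted p = 1.75e-07), *Bst1*, an NAD-consuming ectoenzyme, fell 1.93-fold and *Sirt3*, a mitochondrial NAD-dependent deacetylase, 1.94-fold (adjusted p = 0.000596). Of 38 methionine, polyamine and one-carbon genes 8 were lower (21.1%, against 16.5% of all tested genes) and 3 higher (7.89%, against 15.3%). *Slc43a2*, an amino acid transporter, fell 4.93-fold and *Mthfd2*, a mitochondrial folate enzyme, rose 1.59-fold (adjusted p = 1.9e-05). The 3 higher became 6 without TGFβ replicate 2.

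Sterol genes returned in part: of 34 tested, 8 were higher and 5 lower, and of 25 changed by TGFβ 12 kept their direction and 5 returned. *Msmo1*, a sterol-demethylating oxidase, stayed up at 175, 178 and 182 CPM against 103, 110 and 112 in the controls (1.65-fold, adjusted p = 2.81e-06). *Ebp* and *Cyp51*, other enzymes of the pathway, were 2.61-fold and 1.91-fold above control, *Ebp* above and *Cyp51* below TGFβ alone (adjusted p = 0.00675 and 0.00403). *Abca1*, the cholesterol exporter, had 8.7, 8.72 and 6.65 CPM in the controls and 0.231, 0.112 and 0.132 with both agents, below every other library. Each of these combined values is under 3 counts, so the size of the fall is uncertain. Of 37 stress and unfolded protein response genes 11 were higher and 4 lower, 7 and 2 without control replicate 1; *Edem1* and *Chac1* rose 2.06-fold and 1.94-fold. Of 37 lysosome genes 11 were lower and 4 higher, and the 11 became 7 without control replicates 1 or 2 or without combined replicate 1, while the 4 became 2 without control replicates 1 or 2 and 7 without TGFβ replicate 2; *Gaa*, acid α-glucosidase, fell 2.77-fold. Of 51 histone methylation genes 9 were higher and 7 lower, near the background, and the 9 fell to 4 or 5 when any 1 of the 6 libraries but control replicate 1 was left out, while the 7 became 11 without TGFβ replicate 2. *Ezh2*, the H3K27 methyltransferase, was 1.65-fold above control (adjusted p = 9.6e-05).

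Markers of other cell types were sparse. Of 20 fibroblast markers 13 stayed under 1 CPM in all 6 libraries and *Pdgfra*, *Thy1* and *Lum* had 0 counts in both groups. The summed level of the list was 429 to 467 CPM in the controls and 987 to 1264 with both agents. Most of that sum came from 2 growth factor genes, *Pdgfb* and *Pdgfa*. *Pdgfb*, chosen after its values were seen, had 121 to 157 CPM in the controls and 455 to 703 with both agents. *Pdgfa* had 173 to 183 and 329 to 357 CPM. Of 7 tested, 4 were higher and 2 lower, *Pdgfa* and *Nt5e* up by 1.93-fold and 3.37-fold and *Islr* down 17.1-fold. The other lower gene was *Twist2*, with 10.9 to 12.3 CPM in the controls and 1.46 to 2.08 with both agents. Immune markers summed to 100 to 102 CPM in the controls and 36.5 to 39.9 with both agents, carried by *Csf1r*, which fell 2.96-fold, and *Cd14*, which fell 3.36-fold, while *Adgre1* and *Cd3e* had 0 counts. Of 15 endothelial markers 12 were under 1 CPM in all 6 libraries and *Cdh5* and *Kdr* had 0 counts; *Egfl7* fell 2.23-fold (adjusted p = 0.0122), which was no longer called when control replicate 1 (0.05) or combined replicate 1 (0.0692) was left out. Of 10 tested podocyte genes 4 were lower and 1 higher, 3 had returned, among them *Podxl* and *Synpo*, which were chosen after their values were seen, and *Nphs1* had 0 counts. The part of these markers in the matrix and contractile results was not tested, and in bulk samples fewer cells of a type and less RNA per cell cannot be told apart.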

How the data were processed

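The deposited table held whole-number read counts per gene for 12 libraries in 4 groups of 3. Per the labels' protocols, RNA was extracted from cells in 6-well plates and 100 ng entered QuantSeq 3′ FWD library preparation. STAR and HTSeq are named in the submitters' processing notes, without versions, together with the human build GRCh38, although the gene identifiers are mouse. Positions given are therefore those of mouse annotation (GENCODE M21, GRCm38, and RefSeq for promoters), not of the table. The strand used for counting is not given in the sources used here, and 73 of 150 named genes overlap another annotated gene, 33 on the same strand (such as *Nampt* and *Gdap10*; *Flrt1* and *Tagln* overlap *Macrod1* and *Pcsk7* on the opposite strand), so reads of such genes may be misassigned.

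Among 55487 genes listed, 23630 had a read in any library, and a symbol was found for 55141 identifiers. Rows outside genes, 21.1 to 26.8% of a library, were left out. Genes passing filterByExpr (13581) were scaled by TMM and fitted with edgeR 4.0.16 under R 4.3.3 by robust quasi-likelihood with 1 mean per group over all 12 libraries, and p-values were Benjamini-Hochberg adjusted over all tested genes. TGFβ libraries varied more than the others (biological coefficient of variation 0.227, against 0.0657 in controls and 0.111 with both agents), which enters the shared spread. The labels do not say whether replicates are separate cultures; the spread behind each p-value is that between these libraries and may be technical. No library was a duplicate of another: chi-square divided by its degrees of freedom was 3.23 to 40.8 between replicates. TGFβ replicate 2 stood apart in its group, at 40.8 against replicate 1 and 31.6 against replicate 3. Replicates 1 and 3 of TGFβ gave 6.24. Without TGFβ replicate 2, 5657 genes were called with both agents against control. The fit was checked on simulated data. Floors of 3 counts and counting intervals cover counting error only.

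Named were a panel, the 8 largest rises and falls at 10 CPM or more without overlap, 6 genes past control, 6 returned genes, 4 called only with both agents in each direction, and up to 4 called members of each of 30 lists. Genes past control and genes called only with both agents also had to reach 10 CPM and not overlap control. Those past control had to be called against TGFβ alone as well. A few genes are passed over and not reported. Other genes were named after their values were seen. Members, lists and tests were chosen with earlier results of these data known. Alternatives were DESeq2 1.42.0, other scalings and filters, the 6 libraries alone, a replicate block, limma-voom quality weights (3.58.1) and leaving out single libraries.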

Additional observations from a re-analysis of the deposited data

Results flagged for a closer look

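The effect of the inhibitor differed with and without TGFβ for 151 of 13581 tested genes (1.11%) by the interaction term in edgeR, and 22 named genes were among them. Values are log2 differences between the inhibitor's effect with TGFβ and its effect without it, so a positive value means that the level with both agents was above the sum of the single changes.

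Of the contractile and matrix genes among these 22, the positive differences were *Acta2* 2.84 (adjusted p = 3.78e-07), *Tagln* 2.46 (0.0356), *Cnn1* 2.51 (0.00222), *Tpm1* 0.6 (0.0302), *Actn1* 0.89 (0.00222), *Postn* 1.93 (0.000633) and *Ccn4* 1.13 (0.00271). *Acta2* fell by 3.21 with the inhibitor alone and differed by -0.37 when the inhibitor was added to TGFβ. *Col1a1* went the other way at -1.76 (adjusted p = 0.0291), with -2.1 in the presence of TGFβ and -0.34 without it. *Pmepa1*, *Ctsw* and *Prkg2* were positive as well, at 0.94, 3.27 and 1.0 (adjusted p = 0.0217, 0.0387 and 0.0302).

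Among genes lower than the sum of single changes, *Hist1h1c* had -1.74 (adjusted p = 1.67e-05) and *Gclc* -1.16 (0.000173), and for both the inhibitor alone gave -0.2 and -0.05. *Ly6a* had -1.14 (0.00839), *Gbp3* -0.96 (0.00497), *Stc1* -1.86 (0.0271), *Abca1* -2.9 (0.0179), *Ndrg1* -0.69 (0.0143) and *Ctsl* -0.62 (0.0302). *Abca1* was under 3 counts in each combined library and *Stc1* in combined replicate 3, so the sizes of these differences are uncertain. *Flrt1* at -7.64 (0.000173), *Gpnmb* at -3.53 (0.00162) and *Lmtk3* at -3.02 (0.0386) rest on 0 to 3 counts over the combined libraries, so their sizes are not measured.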

How the results depend on the processing

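The count of called genes ranged from 3430 to 5657 when 1 library was left out and stayed within 1.5 times 4321 in all 17 alternatives: 4368 with DESeq2, 4269 with RLE scaling, 4465 without the low-count filter, 3618 at 10 CPM or more in 3 libraries, 5641 with the 6 libraries alone and 5949 with voom quality weights. Over 2541 values of the named genes 2521 kept direction and call, 7 lost the call (*mt-Nd4*, *Egfl7*), 13 gained it (*Havcr1*, *Cdkn1a*, *Ifit3*) and 0 reversed.

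Genes past control numbered 54 with voom quality weights and 13 to 40 when 1 library was left out. Returned genes numbered 146 to 469, and genes called only with both agents 48 to 171, over the same fits; the cause was not tested. Equal replicate numbers did not mark pairs: deviations of control and combined libraries with the same number correlated at 0.196, 0.007 and -0.134 over 9082 genes, and those of TGFβ and combined libraries at 0.05, 0.071 and -0.166. With a replicate block 4276 genes were called, 2056 higher and 2220 lower, with 3050 still changed, 27 past control and 295 returned. Control replicate 1 deviated most like combined replicate 1, but the other controls did not match their own number best. Depth limits genes near 3 counts.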
